A study of Mus musculus with 8 samples.

Results

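The stretch described here is mouse chromosome 12 from its centromere end up to position 114300000 (mm9), short of the immunoglobulin heavy chain locus, Igh. Its members are all Rad21 ChIP-seq peaks of 8 deposited peak lists that start on chromosome 12 before that position, joined into regions wherever they shared 1 bp or more. They came to 3011 regions out of 64772 in the whole series, built from 8072 of 199072 peaks. The stretch was chosen with earlier results in view: 1 library, PS_Ia replicate 2, was known to have more and taller peaks there than its other chromosomes would give. Values of that library against the other 7 are therefore a description and carry no test.

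All libraries came from CH12F3, a murine B lymphoma line that can switch from IgM to IgA. All lines were AID-/-, without the cytidine deaminase that initiates class switching. Before cross-linking, all received anti-CD40, IL4 and TGF-β for 72 h, a stimulus for switching. PS_Ia lines were made in aInv cells by a deletion between Sγ3 and Sα that leaves part of both switch regions. PS_Ca lines carry the same kind of deletion, made in cells with a VH to 3'BCEs deletion on the non-coding Igh allele. FS_Ia lines, in aInv cells, carry a Cγ3 to Cα deletion with both switch regions kept at full length. FS_Ca lines carry a Cγ3 to Iα deletion, also with full-length switch regions, in the cells with the non-coding allele deletion. Each of the 4 genotypes has 2 libraries, and the labels do not say that these came from separate cultures or clones, so a p-value measures only the spread between these libraries, which may be technical. The labels do not give the coordinates of the edits or say what aInv stands for.

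Rad21 is the kleisin subunit that closes the cohesin ring. Cohesin extrudes chromatin loops, and it accumulates where extrusion halts, mainly at CTCF-bound sites, so that Rad21 peaks mark loop anchors and domain borders. The Igh locus, at the far end of chromosome 12, is itself folded by cohesin during class switch recombination, whereas the chromosome before it carries ordinary loop anchors.

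The 8 lists held 11288 to 47461 peaks each. No read numbers are in the lists, and the expected background of a list, its only sign of depth, lay between 0.223 fragments per position (FS_Ia replicate 2) and 0.862 fragments (PS_Ia replicate 2). Called summits started at 3 to 5 fragments, so a peak missing from a short list was below that list's threshold and is not shown to be absent. The fold enrichment quoted for a peak is the authors' value, its summit over the expected background of its own library.

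Rad21 regions were spread unevenly along the stretch. In 5 Mb windows the density ran from 2.2 regions per Mb at positions 65000001 to 70000000 up to 84.6 regions per Mb at 100000001 to 105000000, with a median of 18 over the 23 windows. Whole windows held 11 to 423 regions with a median of 81 before Igh, against 1 to 550 with a median of 93 in 461 windows of the other autosomes. The densest windows lay in the part toward Igh. Density did not rise evenly there, with 13.8 and 8 regions per Mb in the windows from 90000001 and 95000001. The windows at 80000001 to 85000000, 85000001 to 90000000, 100000001 to 105000000 and 110000001 to 114300000 held 337, 363, 423 and 315 regions, while the sparsest, at 60000001 to 65000000 and 65000001 to 70000000, held 17 and 11.

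**Figure D1:**
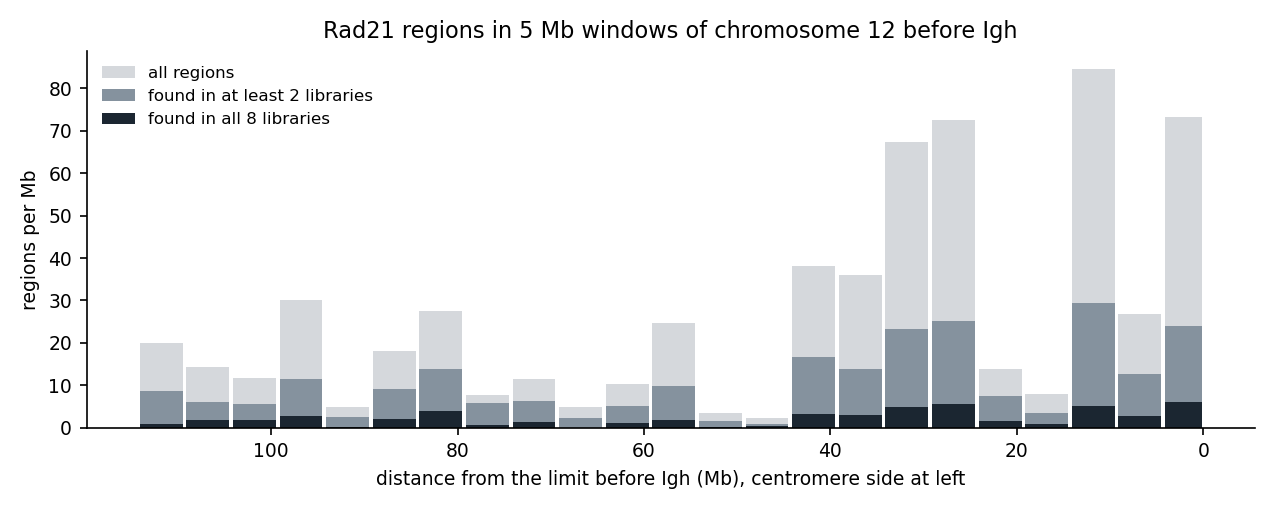
Regions per Mb (vertical axis) in 5 Mb windows along chromosome 12, by distance from the limit before Igh in Mb. Pale bars count all regions, grey bars those found in at least 2 libraries and black bars those found in all 8 libraries. The densest window, at 100000001 to 105000000, reaches 84.6 regions per Mb, and the sparsest holds 2.2.

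The regions found in all 8 libraries numbered 257, and they were spaced about as on the rest of the genome. The median gap between their starts was 137 kb (quartiles 51.0 and 359 kb), against 128 kb (quartiles 47.9 and 301 kb) on the other autosomes. The 1 Mb windows richest in such constant regions were at 88000001 to 89000000 with 11 of them, 112000001 to 113000000 with 10 and 25000001 to 26000000 with 9. At the other extreme, 42 of 112 windows of 1 Mb had none and 12 had no region in any library. The longest stretches without a peak in any list ran from 66375100 to 69963646 (3589 kb), from 5150195 to 7984816 (2835 kb) and from 60484446 to 63245862 (2761 kb).

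By number of libraries, 257 of the 3011 regions (8.54%) were found in all 8 and 1800 (59.8%) in a single library, against 10.7% and 52.3% on the other autosomes. This difference went with PS_Ia replicate 2. Of the 1800 single-library regions, 1364 (75.8%) came from that list, the longest, against 50.0% of those on the other autosomes. With PS_Ia replicate 2 left out, 1809 regions remained before Igh, of which 14.2% were found in all 7 other libraries and 50.0% in 1, against 13.8% and 49.1% on the other autosomes. Constant regions were broad and strong: their median width was 2114 bp and the median of their mean percentile rank within a list, where 0 is the strongest peak, was 25.1, compared with 320 bp and 75.5 for single-library regions. Both contrasts are partly built in. A constant region joins the peaks of all 8 lists, and it must pass the threshold of each of them.

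The strongest member was at 3109751 to 3110242, 492 bp wide, close to the start of the assembled chromosome. It had a fold of 135 and 115 in the PS_Ia libraries, 124 and 142 in the PS_Ca libraries, 169 and 160 in the FS_Ia libraries and 159 and 125 in the FS_Ca libraries. The libraries differed by less than 1.5 times there, and its summit was 195 to 225 fragments high in every list. With heights so alike, differences in fold there largely reflect the background of each list. The fold was lowest in PS_Ia replicate 2, whose background, 0.862, was the highest. No other member came near this region. The next by mean rank, at 25776511 to 25781933, had folds of 17.6 to 36.0, and the third, at 100320623 to 100325155, had 16.4 to 46.6. Both were lowest in PS_Ca replicate 2, the shortest list, and highest in FS_Ia replicate 2, the list with the lowest background.

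The remaining 7 of the 10 best-ranked regions were of the same kind. They were at 102075751 to 102085593, 78099130 to 78102400, 94815327 to 94815769, 113780196 to 113782903, 8332760 to 8336854, 88134713 to 88140303 and 12181825 to 12184852, with median folds of 16.6 to 26.0. The one at 94815327 was only 443 bp wide. By contrast, the broadest member of all, at 102075751 to 102085593, spanned 9843 bp and had folds of 24.7 and 24.2 in the PS_Ia, 31.0 and 14.5 in the PS_Ca, 16.3 and 27.8 in the FS_Ia and 15.8 and 20.2 in the FS_Ca libraries. The next broadest were at 17559202 to 17565337 (6136 bp, folds 8.19 to 21.5) and 88134713 to 88140303 (5591 bp, folds 10.1 to 32.2).

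The position that bounds the stretch fell in a run of weak peaks. Just inside it, the last 3 regions, at 114252272 to 114252551, 114264409 to 114264858 and 114283412 to 114283967, were found in 1, 1 and 2 libraries, with folds of 4.09 to 5.91. Just outside, regions at 114305200 to 114305450 and 114311739 to 114312246 were found in PS_Ia replicate 2 alone, with folds of 3.76 and 4.83. The next, at 114312563 to 114314259, was found in 6 libraries with folds of 4.04 to 11.3.

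How much of each library's Rad21 lay on the stretch was compared by genotype, since the Igh edits sit on the same chromosome. The share of autosomal peaks was 3.67% and 5.57% in PS_Ia replicates 1 and 2, 3.75% and 3.67% in PS_Ca, 3.82% and 3.63% in FS_Ia and 3.87% and 3.58% in FS_Ca. Apart from PS_Ia replicate 2 the libraries lay between 3.58% and 3.87%, and the genotypes overlapped. In numbers of peaks, PS_Ia replicate 2 had 2615, or 22.9 per Mb, and the other libraries 381 to 1132, or 3.33 to 9.90 per Mb.

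Ia lines and Ca lines, which also differ in their parental cells, gave no difference beyond the spread. Over the 4 libraries of each kind the share was 4.17 ± 0.938% in Ia and 3.72 ± 0.125% in Ca lines (SD, n = 4 each). They differed by 0.454 percentage points (exact two-sided permutation test over 70 assignments, p = 0.6; p = 0.629 after Benjamini-Hochberg adjustment over both factors). The smallest p this design allows is 0.0286. Without PS_Ia replicate 2 the difference was -0.0134 percentage points. The peak names carry 3 different prefixes, which split the libraries into 3 sets. Within them Ia minus Ca was -0.00153 in the set of the 4 FS libraries, -0.0836 in that of the PS replicate 1 libraries and 1.90 percentage points in that of the PS replicate 2 libraries.

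Switch length gave the same picture. The share was 4.17 ± 0.939% in PS and 3.72 ± 0.143% in FS lines (SD, n = 4 each). They differed by 0.443 percentage points (exact two-sided permutation test, p = 0.629, adjusted p = 0.629). Without PS_Ia replicate 2 it was -0.0263 percentage points, and with all lists brought to the length of the shortest 0.0807. Each prefix set was all PS or all FS, so the effects of set and of switch length cannot be told apart.

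Single regions that followed a factor were few. In a Fisher's exact test of presence over all 63085 autosomal regions, no adjusted p was below 1, and the smallest raw p, 0.0286, needs a region in all 4 libraries of one kind and none of the other. On the stretch, 1 region met this for Ia (0.0254% of all autosomal regions did) and 1 for Ca (0.0238% of all). For PS there were 2 (0.0365% of all) and for FS 0 (0.00793% of all). At 0 to 2 of 3011 regions, these counts are too small to be set apart from the autosomal shares. Without PS_Ca replicate 2, the shortest list, 24 regions met the rule for PS, 0.797% of 3010 regions of the stretch, against 0.598% of all autosomal regions. That rule needs a peak in PS_Ia replicate 2, whose surplus of peaks led to the choice of the stretch. The higher share is therefore a description and no test.

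These 4 regions were weak to middling peaks. The Ia region, at 77231008 to 77231836, had folds of 7.40 and 6.44 in PS_Ia and 4.64 and 6.54 in FS_Ia libraries. The Ca region, at 94788252 to 94788766, had 4.51 and 4.41 in PS_Ca and 5.74 and 5.20 in FS_Ca libraries, with summits of 6 to 8 fragments. It lay shortly before the strong constant region at 94815327. Of the PS regions, the one at 79432791 to 79434073 was the strongest of the 4, with folds of 11.1 and 8.59 in PS_Ia and 6.77 and 5.67 in PS_Ca libraries. The other, at 103836636 to 103837134, had 6.78 and 4.83 in PS_Ia and 4.51 and 6.93 in PS_Ca libraries. None of the 4 remained when only peaks with a −log10 q of at least 5 were counted.

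Peak height was compared at the 257 constant regions, which every library had. Within a library, the median fold at these regions was divided by the median fold at the 6432 constant regions of the other autosomes. That ratio was 0.941 and 1.14 in PS_Ia replicates 1 and 2, 0.913 and 1.00 in PS_Ca, 0.917 and 0.857 in FS_Ia and 1.00 and 0.947 in FS_Ca. Only PS_Ia replicate 2 was above 1, so that the stretch was its taller part and at or below the rest of the genome in the other 7 libraries.

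**Figure D2:**
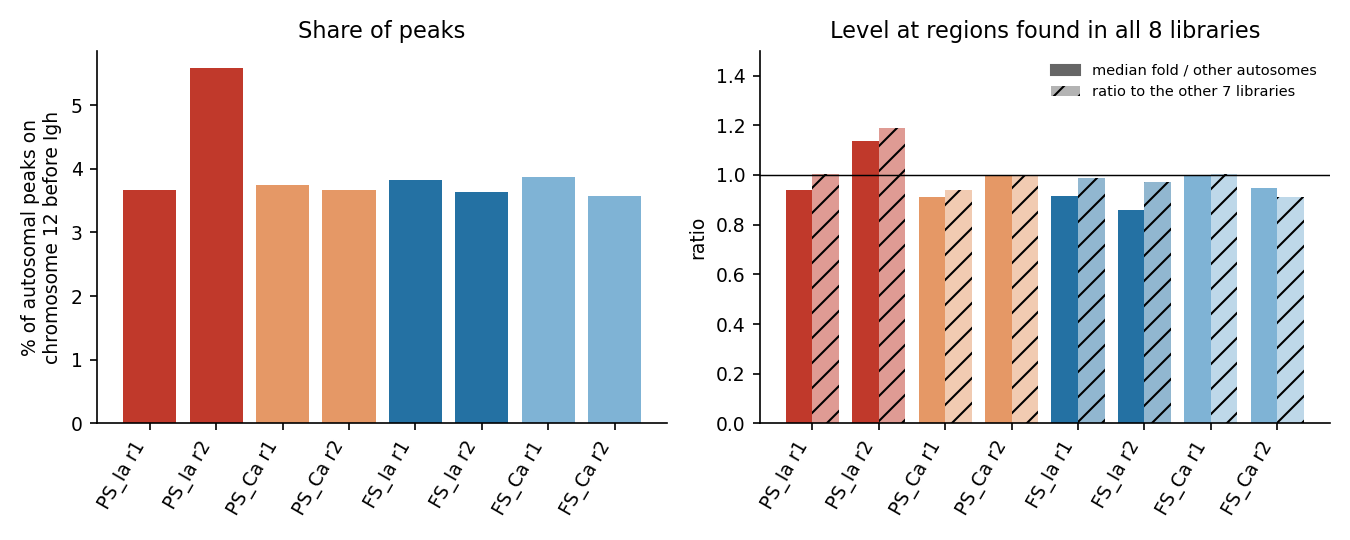
Left, percent of each library's autosomal peaks on chromosome 12 before Igh. Right, level at the 257 regions found in all 8 libraries: solid bars, median fold over that of the other autosomes in the same library; hatched bars, median ratio to the other 7 libraries. Bars are single libraries (r1 and r2 are replicates), and PS_Ia replicate 2 is highest in each panel at 5.57%, 1.14 and 1.19.

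Region by region, each library's fold was first divided by its own median over the constant regions of the other autosomes and then by the median of the other 7 libraries. This relative level was 1.19 times that of the others in PS_Ia replicate 2, and 195 of 257 regions (75.9%) were above 1. In the other 7 libraries it was 0.912 (FS_Ca replicate 2) to 1.01 (PS_Ia replicate 1). On the other autosomes PS_Ia replicate 2 was at 0.967, with 44.1% of regions above 1, and taken chromosome by chromosome it lay between 0.918 and 1.06 there. Chromosome 12 was not alone in standing apart in some library: over all libraries and other autosomes, the same ratio ran from 0.767 (chromosome 16 in PS_Ca replicate 1) to 1.11.

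All peaks together showed none of this in their median. The median fold of all peaks on the stretch was 4.83 in PS_Ia replicate 2, as on its other autosomes, and the ratio of these medians was 1.00 in 7 libraries and 0.909 in PS_Ca replicate 2. Folds rest on whole fragment heights, with a median of 8 both on the stretch and elsewhere in PS_Ia replicate 2. Such a median moves only in steps, so a shift smaller than 1 step would not show. What PS_Ia replicate 2 had more of was peaks of its own: 52.2% of its peaks on the stretch were found in no other library, against 35.4% on its other autosomes. Of all regions found in that library alone, 7.99% lay on the stretch, against 0.403% to 4.82% of those found in any 1 of the others alone.

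The higher level in PS_Ia replicate 2 was seen at regions of every strength. Constant regions were split into 3 classes by their mean rank in the other 7 libraries. The ratio of PS_Ia replicate 2 to the others was 1.15 in 77 strong, 1.15 in 81 middle and 1.28 in 99 weak regions of the stretch, against 0.945, 0.965 and 0.989 in the matching regions of the other autosomes. Set against those, the stretch was 1.22, 1.19 and 1.3 times higher.

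Single regions varied widely around that median. The largest ratio, 2.29, was at 16515732 to 16517450, where the relative level was 1.59 in PS_Ia replicate 2 and 0.65 in PS_Ia replicate 1, 0.70 and 0.75 in PS_Ca, 1.08 and 0.93 in FS_Ia and 0.69 and 0.68 in FS_Ca. At 102195544 to 102197991 the ratio was 2.23, with 2.05 in PS_Ia replicate 2 and 0.59 to 1.14 in the others. In both cases PS_Ia replicate 2 was above each of the other 7 libraries. The next were at 8553326 to 8555088 (2.03), 88111515 to 88114022 (2.01) and 106189112 to 106193511 (1.84). Here FS_Ia replicate 2 was nearly as high. Its relative levels were 1.79, 1.43 and 2.21, against 1.91, 1.55 and 2.32 in PS_Ia replicate 2. The smallest ratio was 0.63, at 31800375 to 31801887. The tall region at 3109751 was also among the 5 smallest, at 0.69, with those at 105232695, 74804540 and 65997800 (0.69, 0.69 and 0.70).

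Along the chromosome, the higher level was seen from the first windows on and had no sharp edge, but it was not unbroken. Of the 23 windows of 5 Mb, 17 held at least 5 constant regions, and the median ratio of PS_Ia replicate 2 was above 1 in 16 of them. It was at least 1.2 in 6 windows, against 0.539% of 371 windows of the other autosomes; the other direction, at or below the inverse of 1.2, was met by 0 windows of the stretch and by 14.0% elsewhere. The 6 windows were those from 5000001 (1.25), 50000001 (1.24), 85000001 (1.36), 95000001 (1.21), 100000001 (1.29) and 110000001 (1.39). The lowest of the 17 was 0.987, from 75000001 to 80000000. Among the windows with fewer constant regions, the first 5 Mb had 1.42 at 4 regions. Those from 20000001, 35000001, 60000001 and 65000001 had 0.985, 0.968, 0.873 and 0.972, at 1 to 3 regions each. Without PS_Ca replicate 2 or FS_Ca replicate 1, 11 windows were at least 1.2, against 0.779% and 2.15% of the windows of the other autosomes.

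In 9 of the 17 windows PS_Ia replicate 2 was above every other library. The clearest was at 85000001 to 90000000, where it had 1.36 and the others 0.897 to 1.09. In the last window, 110000001 to 114300000, all 26 constant regions of PS_Ia replicate 2 were above the median of the others, yet FS_Ia replicate 2 had a median of 1.37 as well, against 1.39. Windows of the other libraries strayed too: FS_Ia replicate 2 and FS_Ca replicate 2 each had 5 of the 17 windows at or below the inverse of 1.2.

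**Figure D3:**
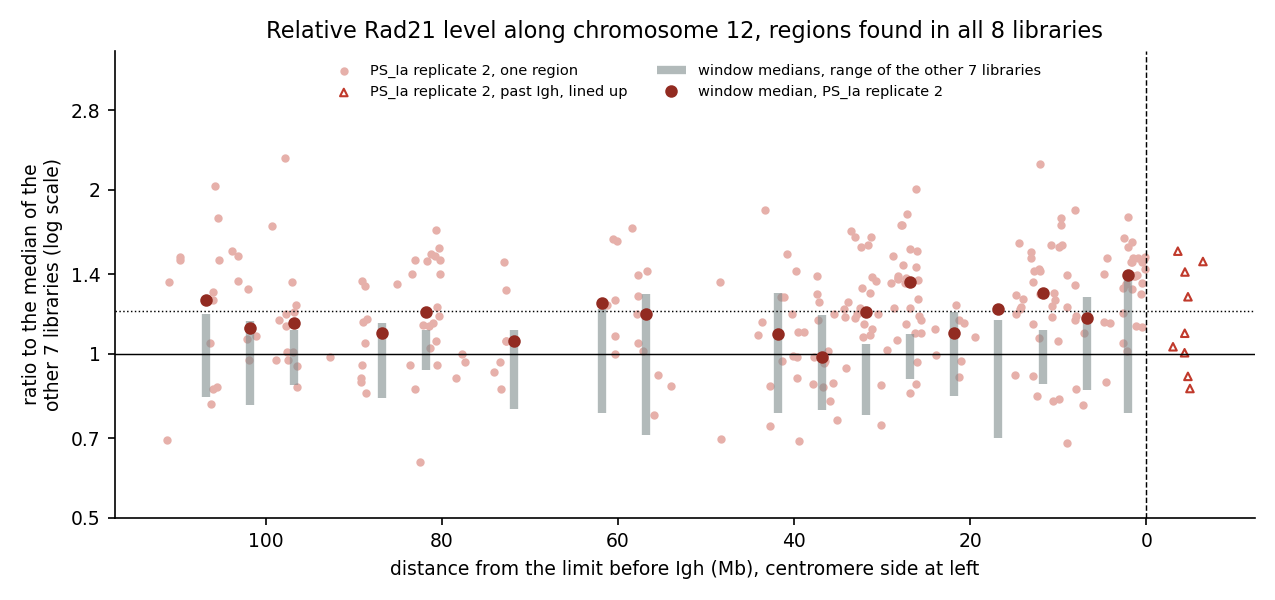
Ratio of the relative level to the median of the other 7 libraries (log axis) against distance from the limit before Igh in Mb, at regions found in all 8 libraries. Small points are single regions and large points 5 Mb window medians of PS_Ia replicate 2, grey bars the range of window medians of the other 7 libraries, triangles the 9 regions past Igh after lining up, and the dotted line a ratio of 1.2. PS_Ia replicate 2 medians are above 1 in 16 of the 17 windows with at least 5 such regions. Windows with fewer have no median drawn.

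The single run of regions that best divided the stretch by least squares was one of smaller excess. It covered 103 constant regions from 16574526 to 80200187, with a mean ratio of 1.10, against 1.26 in the other 154. The medians were 1.28 in the 26 regions before it, 1.09 in it and 1.29 in the 128 regions after it, so that PS_Ia replicate 2 was high on both sides. The division was slight: it took up 7.93% of the variance, within the 2.02% to 11.1% that the best run took up on the 18 other autosomes, of which 4 reached at least as much.

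Around its edges the values changed by no clear step. Before the start, the regions at 15541150, 15819793 and 16515732 had ratios of 0.97, 1.15 and 2.29, and after it those at 16574526, 16640145 and 16723791 had 1.13, 1.18 and 1.01. Before the end, the regions at 80019126, 80123320 and 80196292 had 1.21, 1.17 and 0.94, and after it those at 80458744, 80711868 and 81209266 had 1.25, 1.68 and 1.64. The last 3 constant regions before the limit, at 113983433, 114080670 and 114110985, had 1.49, 1.43 and 1.5.

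The number of peaks in PS_Ia replicate 2 varied with the density of peaks. The peaks of this library were counted per peak of the other 7 libraries, and this was divided by the same ratio over all autosomes. The resulting peak count ratio was 1.91 in the first 5 Mb and 2.05 at 100000001 to 105000000. It was 0.597 at 60000001 to 65000000 and 0.420 at 65000001 to 70000000. These sparse windows showed no excess. On the other autosomes this library also had few peaks in sparse windows and many in dense ones: the ratio there was 0.450 in 2 Mb windows with 15 or fewer peaks of the other 7 libraries and 1.15 in those with over 250. Before Igh the ratio was 0.767 and 1.96 in the same classes. Compared class by class, the stretch was 1.71, 1.49, 1.55, 1.45, 1.72 and 1.69 times the other autosomes, in order of rising density.

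**Figure D4:**
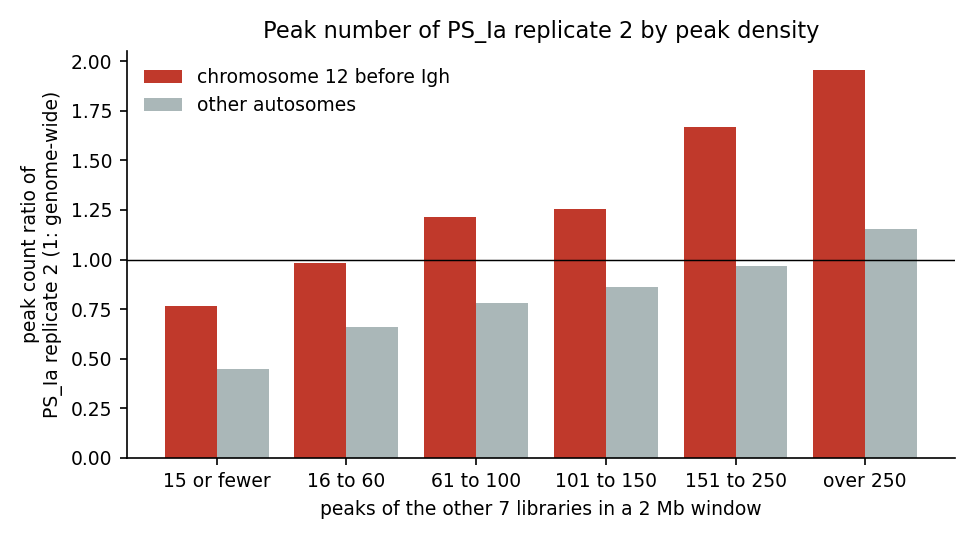
Peak count ratio of PS_Ia replicate 2, where 1 is its genome-wide ratio to the other 7 libraries, in 2 Mb windows grouped by the number of peaks of the other 7 libraries. Red bars are chromosome 12 before Igh and grey bars the other autosomes. Both rise with density, and chromosome 12 is 1.45 to 1.72 times higher in every class.

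Adjusted in this way with 1 Mb windows, a step added after seeing the data, PS_Ia replicate 2 had 2615 peaks where 1620 were expected, a ratio of 1.61. Counted up to 115000000 it was also 1.61, and the other 7 libraries, each set against the remaining ones, PS_Ia replicate 2 included, were at 0.836 to 0.917. All 19 windows of 5 Mb with at least 20 expected peaks were above 1, from 1.22 (25000001 to 30000000) to 2.13 (the first 5 Mb). The 4 sparser windows held 42 peaks where 39.5 were expected. Of these, the 2 from 60000001 to 70000000 stayed below 1 after adjustment, at 0.803 with 11 peaks and 0.705 with 4. The whole-chromosome ratios of the 18 other autosomes lay between 0.887 and 1.22, the highest being chromosome 16.

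The relative level behaved likewise. After the same adjustment it was 1.26 over the stretch, against 0.959 to 1.07 on the other autosomes, and all 17 windows were above 1, at 1.09 to 1.45, with 12 at or past 1.2. Of the 371 windows of the other autosomes, 47.7% were above 1 after adjustment, 2.16% were at or past 1.2 and 3.50% at or below its inverse. The medians of the parts before, in and after the run of smaller excess were 1.32, 1.18 and 1.31. Sought anew on the adjusted level, that run was shorter, with 39 regions from 58381752 to 80200187, a mean ratio of 1.13 against 1.29 outside it, and 4.48% of the variance. In the windows from 70000001 to 80000000 the 2 measures parted: the adjusted peak number was 1.70 and 1.73 times the expected one, while the adjusted level was 1.15 and 1.09.

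**Figure D5:**
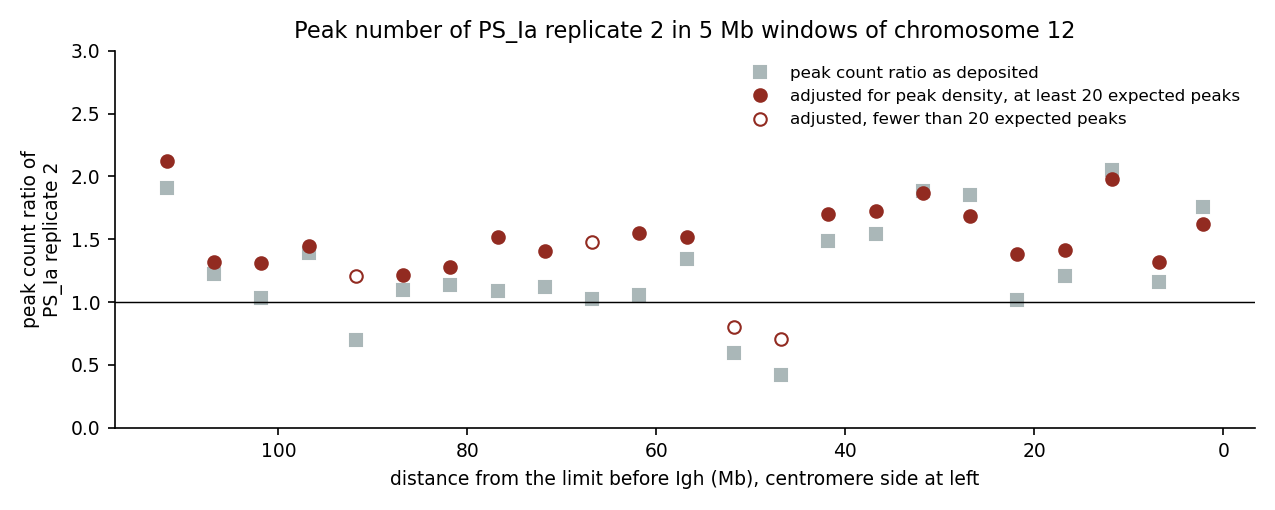
Peak count ratio of PS_Ia replicate 2 in 5 Mb windows against distance from the limit before Igh in Mb, as deposited (squares) and adjusted for peak density (circles; open circles have fewer than 20 expected peaks). After adjustment all 19 windows with at least 20 expected peaks lie between 1.22 and 2.13.

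Where the excess ends could not be fixed, because few peaks lie beyond and their positions there are displaced between lists. From the limit to 115000000 PS_Ia replicate 2 had 29 peaks. Its peak count ratio to the other 7 libraries was 1.25, where 1 is its ratio over all autosomes. The 2 constant regions had a median ratio of 1.26 in PS_Ia replicate 2, with 1.3 in FS_Ia replicate 2. From 115000001 to the chromosome end, a span that takes in part of Igh, 6 of the lists were lined up with PS_Ia replicate 1 by shifts of 97.0 to 103 kb and PS_Ca replicate 1 by -0.043 kb. There PS_Ia replicate 2 had 56 peaks, a peak count ratio of 0.937. After adjustment for density 43.4 were expected, a ratio of 1.29 (95% exact Poisson interval 0.974 to 1.68, counting error only). The other libraries had 0.780 to 1.04. The 9 constant regions had a ratio of 1.09 in PS_Ia replicate 2, higher in 7 of 9, and of 0.788 to 1.19 in the other libraries. With so few regions, neither a continued nor an ended excess could be told at this depth.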

How the data were processed

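Rad21 ChIP-seq (Tn5 tagmentation on the beads, paired ends, per the labels' protocols) was deposited as 1 peak list per library. Per the submitters' processing notes the build was mm9 and the tools MACS2 2.2.7.1, deepTools 3.5.1, SAMtools 1.15.1 and Bowtie2 2.4.4. Settings, the threshold and any control were not given in the sources used here. Per peak, the authors' lists give a fold ratio over background, −log10 p and −log10 q values, and a score that repeats the q value. A deposited fold is (height + 1) over (background + 1) with 1 background per list, and all heights under 100 fragments came out whole within 0.02.

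Peaks on the 19 autosomes were merged into regions by 1 bp overlap, and a region's value in a library was its highest fold. Shares were tested by exact permutation and presence by Fisher's exact test, and p-values were adjusted by Benjamini-Hochberg. Shifts from 115000001 on were those, up to 150 kb, that paired most summits within 500 bp.

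The members, windows, the rule for named regions and the tests were chosen with earlier results of these data known. The rule took the 10 best-ranked constant regions, all regions following a factor, the densest windows and longest gaps, the 3 broadest regions, 5 regions at each extreme of the ratio and those at the edges. No genome or annotation of mm9 was used here, so no gene or sequence is given. Alternatives were stricter peaks, lists of equal length, other region and window definitions, summit heights, pairs and left-out libraries. Depth beyond the backgrounds is unknown. Scripts (Python 3.11.15, numpy 2.4.6, pandas 2.3.3, scipy 1.17.1, matplotlib 3.10.9) were tested on simulated data.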

Additional observations from a re-analysis of the deposited data

Results flagged for a closer look

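PS_Ia replicate 2 had 5.57% of its autosomal peaks on chromosome 12 before Igh, set apart from the other libraries of its kind by a gap that made up most of their range. Among the 4 Ia libraries the gap to the next, at 3.82%, was 0.902 of the whole range, and among the 4 PS libraries the gap to the next, at 3.75%, was 0.956. The stretch was chosen because this library was known to stand apart there, so both gaps are a description and no test. Of the 8 groups looked at, these were flagged for the same library, so the gaps are not separate findings. The cutoff for flagging is one that chance alone passes in about 1 in 20 groups. That rate does not hold for a stretch chosen with the result known, so no chance is given for these gaps. That library also has the longest list and the highest background. With every list brought to the length of the shortest by its strongest peaks, its share was 4.94%, against 3.50% to 4.22% in the other 7. The part of the background was not tested.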

How the results depend on the processing

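The share of peaks kept its side of the threshold under every alternative, and its sign except without PS_Ia replicate 2 (-0.0134 for Ia minus Ca and -0.0263 for PS minus FS). Its size moved: PS minus FS was 0.0807 with lists of equal length and 0.234 with −log10 q of at least 5, where Ia minus Ca was 0.430 and 0.482. With each library left out in turn, Ia minus Ca ranged from -0.0134 to 0.635 and PS minus FS from -0.0263 to 0.609 percentage points (exact permutation p from 0.2 to 0.886 and from 0.286 to 0.914). Regions following Ia or Ca fell to 0 with −log10 q of at least 5, and those following switch length to 0 there and 4 with summits ± 100 bp. With a library left out they ranged from 2 to 6 (5, 6 and 4 without PS_Ca, FS_Ia and FS_Ca replicate 1) and from 3 to 24 (24 without PS_Ca replicate 2, and 3 to 5 without any other). The shares over all autosomal regions rose too. Without FS_Ia replicate 1, Ia regions were 0.166% of the stretch, against 0.160% of all. Without PS_Ca replicate 1 they were 0.136%, against 0.111%. Without FS_Ca replicate 1, Ia and Ca regions were 0.0670% each, against 0.0352% and 0.0496%. PS regions were 0.168% there, against 0.104%, and 0.797% without PS_Ca replicate 2, against 0.598%. Without FS_Ia replicate 2 they were 0.138%, against 0.0711%. Without FS_Ca replicate 2 they were 0.171%, against 0.153%. The 4 regions with summits ± 100 bp have no such share to set beside them. The relative level of PS_Ia replicate 2 was 1.26 after the density adjustment added later and 1.19 to 1.25 with another library left out. It was 1.29 at regions of at least 6 libraries. PS_Ia replicate 2 had to be among these libraries, so its own peaks helped to select the regions. At those regions 12 of 20 windows were past the fold, without a share on the other autosomes to set beside them. After the adjustment 12 of 17 were, against 2.16% of the windows of the other autosomes. With a library left out 6 to 11 were (11 without PS_Ca replicate 2 or FS_Ca replicate 1). The run of smaller excess started at 16574526 to 58381752 and ended at 79157826 to 80461414 with a library left out. It ran from 12426875 to 102085412 with −log10 q of at least 5, and from 3109751 to 80022327 at regions of at least 6 libraries. The cause of these shifts was not tested. Taking libraries of the same number as pairs (replicate block) gave p = 0.875 for both shares (exact sign-flip permutation, 16 arrangements, smallest p 0.125) and the same 2 and 2 regions. The deviations of same-numbered libraries had correlations between genotypes of -0.216 (PS_Ca and FS_Ca) to 0.404 (PS_Ia and FS_Ia). The peak-name prefixes grouped the PS libraries by number, but not the FS libraries. Whether the numbers pair the libraries was therefore not settled.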
